A study of Gallus gallus with 8 samples.

Results

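MBP, ENPP2, CRYAB and SGK1 are 4 genes with known roles in oligodendrocytes, the cells that wrap axons in myelin. They are 4 of the 6428 genes named on a chicken cDNA array, and were followed in hypothalamic RNA of 2 chicken lines, one fat (FL) and one lean (LL). All spots with one of these symbols in the platform annotation were taken, which gave 11 spots of 10 clones: 2 of MBP (NCBI gene 396217), 2 of ENPP2 (420361), 1 of CRYAB (396089) and 5 of SGK1 (395133). The groups were FL at weeks 1, 3, 5 and 7 and LL at weeks 1, 3, 5 and 7, and each of the 8 groups held 4 arrays, which the design text calls biological replicates. All birds were raised as standard broilers, and no source used here states their sex. Each of the 32 arrays compared the Cy3-labelled RNA of 1 sample with a Cy5-labelled pool to which every RNA sample gave an equal aliquot, so a log2 ratio of 0 means the level of that pool. No dyes were swapped.

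Myelin is a stack of oligodendrocyte membrane that insulates axons and speeds conduction, and in birds, as in mammals, much of it is laid down around and after hatching. MBP, myelin basic protein, binds the inner faces of that membrane together. ENPP2, autotaxin, is a secreted enzyme that makes the signalling lipid lysophosphatidic acid, and in rodents it is made by maturing oligodendrocytes and by the choroid plexus. CRYAB, alpha-B crystallin, is a small heat shock protein that keeps other proteins from aggregating and is abundant in mammalian oligodendrocytes. SGK1 is a kinase induced by serum and glucocorticoids, and its transcript rises in rodent white matter after stress hormone exposure. In whole-tissue RNA, fewer cells of a type and less RNA per cell cannot be told apart.

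The log2 ratio of 2 arrays over the tested clones correlated at -0.38 at the lowest (496 pairs), and since the labels name the dyes the direction was kept as they give it. The median Cy3 signal of an array lay between 2.57 and 8.45 times its local background. FL arrays of week 1 averaged 3.96 ± 0.718, against 6.05 ± 1.76 for LL arrays of week 1 (SD, n = 4 each), so array signal differed between these groups beside every line comparison at week 1. Arrays of replicate numbers 1, 2, 3 and 4 also differed in signal, with means of 3.63, 4.36, 5.67 and 6.84 (n = 8 arrays each). On 4 arrays (FL week 1 replicate 2, FL week 7 replicate 3, LL week 3 replicate 1 and LL week 7 replicate 3) the log2 ratios deviated from their group mean with an SD above 0.3.

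Of the 10 clones, 8 passed the filter on dim spots, which asked for signal above the empty spots of the array on at least 3 of 4 arrays in at least 1 group. SGK1 clone D was above background on 3 of 32 arrays and SGK1 clone E had 0 usable values, so neither was tested. In array signal, which is no measure of level between clones, the MBP clones and SGK1 clone A were bright, at percentiles 86.9, 86.8 and 89.6 of the tested clones. ENPP2 clone B was dim, at percentile 19.6, and above background on 15 of the 28 arrays that gave it a value. No sequence of the printed clones was read here, so each value belongs to a clone and the annotation gives its gene.

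**Figure D1:**
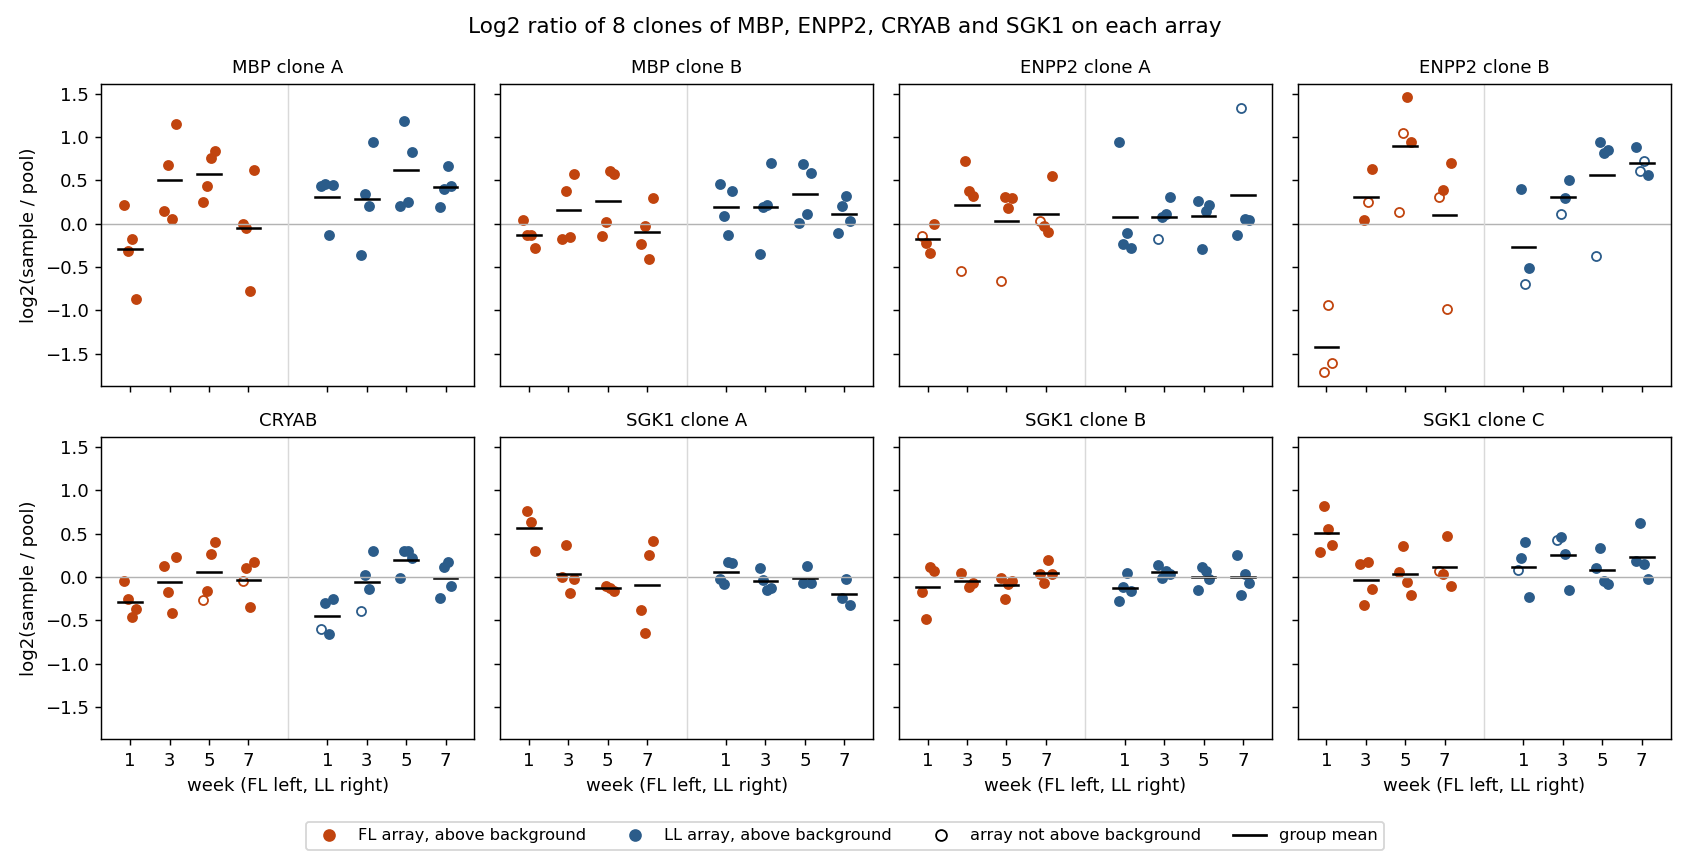
Log2 ratio of sample to pool (vertical axis) for the 8 tested clones in each week (horizontal axis), FL on the left and LL on the right of each panel. Each point is 1 array, open points were not above background, and bars are group means. ENPP2 clone B lay between -1.72 and -0.93 in FL at week 1, below every other array of that clone except FL week 7 replicate 3 at -0.98.

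MBP, the structural protein of compact myelin, passed no test between week 7 and week 1. MBP clone A had log2 ratios of -0.01, -0.05, -0.77 and 0.62 in FL at week 7, against 0.21, -0.32, -0.18 and -0.87 in FL at week 1. In LL it had 0.19, 0.40, 0.67 and 0.43 at week 7, against 0.43, 0.45, -0.13 and 0.45 at week 1. The arrays of both weeks overlapped in each line, and FL replicate 3 was the lowest at week 7. Over both lines the log2 difference, week 7 minus week 1, was 0.18 ± 0.21 (SE; 6 of 8 arrays; adjusted p = 0.675, limma), with a 95% interval of -0.24 to 0.60. MBP clone B gave -0.03 ± 0.15 (4 of 8 arrays, adjusted p = 0.945), with an interval of -0.34 to 0.29.

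Both lines had their highest MBP mean at week 5. In FL, MBP clone A averaged -0.29 ± 0.45, 0.51 ± 0.51, 0.57 ± 0.27 and -0.05 ± 0.57 at weeks 1, 3, 5 and 7 (SD, n = 4 each). In LL it averaged 0.30 ± 0.29, 0.28 ± 0.53, 0.62 ± 0.47 and 0.42 ± 0.20 at the same ages. From low to high the group means ran FL week 1, FL week 7, LL week 3, LL week 1, LL week 7, FL week 3, FL week 5 and LL week 5, and each lay within 1 SD of the next. The 4 FL values of week 3 were 0.15, 0.68, 0.05 and 1.15, which overlap those of FL at week 1. Over both lines the step between weeks 3 and 1 was 0.39 ± 0.21 (6 of 8 arrays, adjusted p = 0.445, limma), so it did not pass. MBP clone B ran lower in size, with means of -0.13, 0.16, 0.27 and -0.09 in FL and 0.20, 0.19, 0.35 and 0.11 in LL at weeks 1, 3, 5 and 7, and group SDs between 0.13 and 0.43.

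At week 1 MBP clone A differed by -0.59 ± 0.29 between FL and LL (4 of 4 FL arrays below the LL mean, adjusted p = 0.285, limma). Its FL and LL values overlapped at that age, as they did at weeks 3, 5 and 7, where the differences of means were 0.22, -0.05 and -0.48. MBP clone B differed by -0.32 ± 0.22 at week 1 (adjusted p = 0.429). Averaged over the 4 ages the line differences were -0.22 ± 0.15 for clone A and -0.16 ± 0.11 for clone B, each with 11 of 16 FL arrays below LL and an adjusted p of 0.827. None of these passed the test.

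ENPP2 clone B, of the gene for autotaxin, was the only clone of this group that passed between weeks 7 and 1. The other clone of the gene, clone A, was brighter and did not pass (0.27, adjusted p = 0.508, limma). With its brighter spot alone clone A gave -0.04. In FL clone B had log2 ratios of 0.30, 0.39, -0.98 and 0.70 at week 7, against -1.72, -0.93 and -1.61 at week 1, where replicate 1 gave no usable value. In LL it had 0.89, 0.61, 0.72 and 0.57 at week 7, against 0.40, -0.70 and -0.51 at week 1, again with no value for replicate 1. All 4 LL arrays of week 7 were above all LL arrays of week 1, while FL replicate 3 of week 7 fell within the week 1 range. Over both lines the log2 difference was 1.24 ± 0.26 (8 of 8 week 7 arrays above the week 1 mean of their line; adjusted p = 0.0128, limma), with a 95% interval of 0.72 to 1.77. None of the 3 FL arrays of week 1 measured the clone above background, so the size of this difference is uncertain. The clone passed the filter through LL at week 5 alone, where 3 of 4 arrays were above background, against at most 2 in each other group, so it was admitted by a group in which it was high.

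The rise of ENPP2 clone B passed the test within FL and not within LL. Within FL it was 1.52 ± 0.36 (4 of 4 arrays, adjusted p = 0.0382, limma), and within LL 0.96 ± 0.36 (4 of 4 arrays, adjusted p = 0.432). The difference of these effects, FL minus LL, was 0.56 ± 0.51 with a 95% interval of -0.49 to 1.61 (adjusted p = 0.947), so a difference between the lines was not shown. With no FL array of week 1 above background, the size of the FL change is uncertain. The mean Cy3 level, normalized between arrays, was 2.36-fold higher in FL at week 7, with 2 of 4 arrays above background there. That ratio rests on values not above background and is no lower bound. Within FL the call was lost when replicate 2 or 4 of week 1, or replicate 1, 2 or 4 of week 7, was left out, where the difference was 1.32 to 1.46 and the adjusted p was 0.113 to 0.195. Over both lines the call was kept without each of the 32 arrays in turn (1.14 to 1.42). Only arrays of weeks 1 and 7 with a value of this clone could move the difference. Leaving out any other array could change only its SE or adjusted p. The call over both lines was lost when log ratios were scaled between arrays (1.03, adjusted p = 0.0601). With only the arrays compared in the fit it was lost too (the same 1.24, adjusted p = 0.0608).

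Most of the ENPP2 clone B difference lay between weeks 1 and 3. FL averaged -1.42 ± 0.42 (n = 3), 0.31 ± 0.30 (n = 3), 0.89 ± 0.56 (n = 4) and 0.10 ± 0.74 (n = 4) at weeks 1, 3, 5 and 7. LL averaged -0.27 ± 0.59 (n = 3), 0.30 ± 0.20 (n = 3), 0.56 ± 0.62 (n = 4) and 0.70 ± 0.14 (n = 4). From low to high the means ran FL week 1, LL week 1, FL week 7, LL week 3, FL week 3, LL week 5, LL week 7 and FL week 5. Each overlapped the next in its array values except FL week 1, which lay wholly below LL week 1. At week 3 the FL values were 0.05, 0.25 and 0.63 and the LL values 0.11, 0.30 and 0.50, all above the week 1 mean of their line. The step was 1.15 ± 0.27 (6 of 6 arrays, adjusted p = 0.0848, limma), which did not pass, and its size is uncertain because no FL array of week 1 was above background. It passed by limma without FL week 7 replicate 3 (adjusted p = 0.0169) and without FL week 1 replicate 1 (adjusted p = 0.0478). Neither array held a value that enters this step, which stayed at 1.15 in both fits. Between weeks 7 and 3 the difference was 0.09 ± 0.26 (adjusted p = 0.998).

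At week 1 ENPP2 clone B was not above background on any FL array, and on 2 of 3 LL arrays, so the size of the line difference is uncertain. The FL values, -1.72, -0.93 and -1.61, did not overlap the LL values, 0.40, -0.70 and -0.51. The difference was -1.15 ± 0.39 (3 of 3 FL arrays, adjusted p = 0.154, limma), which did not pass. With array signal in the model it was -0.79 (adjusted p = 0.519). At weeks 3, 5 and 7 the values of the lines overlapped, with differences of means of 0.01, 0.34 and -0.59. The F test of whether the line difference changed over the ages gave 3.17 (unadjusted p = 0.0436, adjusted p = 0.711).

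ENPP2 clone A passed no test. Its week 7 minus week 1 difference was 0.27 ± 0.21 (5 of 8 arrays, adjusted p = 0.508, limma). It averaged -0.18 ± 0.14, 0.22 ± 0.54, 0.03 ± 0.47 and 0.11 ± 0.29 in FL and 0.08 ± 0.58, 0.08 ± 0.20, 0.08 ± 0.25 and 0.33 ± 0.68 in LL at weeks 1, 3, 5 and 7 (SD, n = 4 each). The clone was printed at 2 places that disagreed. The spot in block 27 was usable on 32 arrays and above background on 29, and the spot in block 4 was usable on 19 and above background on 0. With the brighter spot alone the difference was -0.04, so the direction of clone A depends on the dim spot.

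CRYAB, the small heat shock protein, was at its lowest mean in week 1 in both lines. Its log2 ratios were -0.05, 0.10, -0.35 and 0.17 in FL at week 7, against -0.05, -0.26, -0.46 and -0.37 in FL at week 1. In LL they were -0.25, 0.12, 0.18 and -0.10 at week 7, against -0.60, -0.30, -0.66 and -0.25 at week 1. The weeks overlapped in FL, and in LL all 4 arrays of week 7 were above the week 1 mean. The difference over both lines was 0.35 ± 0.12 (1.27-fold, 7 of 8 arrays, adjusted p = 0.111, limma), which did not pass. It passed without FL week 7 replicate 3 (0.40, adjusted p = 0.0410) and with arrays weighted by their scatter (0.39, adjusted p = 0.0239).

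No test separated the lines for CRYAB. FL averaged -0.28 ± 0.17, -0.06 ± 0.30, 0.06 ± 0.33 and -0.03 ± 0.23 at weeks 1, 3, 5 and 7, and LL averaged -0.45 ± 0.21, -0.05 ± 0.29, 0.20 ± 0.15 and -0.01 ± 0.20 (SD, n = 4 each). The FL and LL values overlapped at each age. Averaged over the ages the lines differed by 0.00 ± 0.08 (9 of 16 arrays, adjusted p = 0.998), with a 95% interval of -0.17 to 0.17. The step between weeks 3 and 1 was 0.31 ± 0.12 (7 of 8 arrays, adjusted p = 0.287), and that between weeks 7 and 3 was 0.03 ± 0.12.

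The 3 tested clones of SGK1, the glucocorticoid-induced kinase, differed in the sign of their age difference, and none passed in the model reported here. SGK1 clone A had log2 ratios of -0.38, -0.65, 0.25 and 0.41 in FL at week 7, against 0.76, 0.63 and 0.30 in FL at week 1. In LL it had -0.24, -0.03 and -0.32 at week 7, against -0.02, -0.08, 0.17 and 0.16 at week 1. In FL, 3 of the 4 arrays of week 7 lay below every array of week 1 and replicate 4 lay within their range. The difference over both lines was -0.46 ± 0.13 (1.37-fold, 7 of 7 arrays below the week 1 mean, adjusted p = 0.0579, limma), just short of the threshold. It passed under 4 of 11 other settings, and the limma adjusted p-values over all 11 lay between 0.00856 and 0.197. It also passed in 5 fits that left out 1 array: replicate 1 or 4 of FL week 1, replicate 3 or 4 of FL week 7, or replicate 2 of LL week 1 (adjusted p = 0.0202 to 0.0479). Replicate 1 of FL week 1 held no value of clone A, and the difference without it stayed at -0.46.

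SGK1 clone B, also bright, gave 0.15 ± 0.08 (7 of 8 arrays, adjusted p = 0.316), and SGK1 clone C gave -0.14 ± 0.12 (5 of 8 arrays, adjusted p = 0.580, limma). With the authors' log2 ratios clone C passed, at -0.25 (adjusted p = 0.0483), and with array weights it gave -0.28 (adjusted p = 0.125). Clone B kept within a narrow range, with group means from -0.12 to 0.05 in FL and from -0.13 to 0.06 in LL. Within FL the differences between weeks 7 and 1 were -0.66 ± 0.18 for clone A (4 of 4 arrays, adjusted p = 0.0787), 0.17 ± 0.11 for clone B (4 of 4, adjusted p = 0.509) and -0.39 ± 0.17 for clone C (4 of 4, adjusted p = 0.293). For clone A the FL difference passed by limma with no background subtraction (-0.57, adjusted p = 0.0469) and with array weights (-0.74, adjusted p = 0.0378). It also passed without replicate 1 of FL week 1 or replicate 3 or 4 of FL week 7 (adjusted p = 0.0176 to 0.0465). Without replicate 1 of FL week 1, which held no value of clone A, the difference stayed at -0.66. Within LL the differences of clones A, B and C were -0.26 ± 0.18, 0.13 ± 0.11 and 0.12 ± 0.17, with adjusted p-values of 0.678, 0.759 and 0.888. A letter in the quality column that the key in the files does not explain marked the spot of clone A on 16 of 32 arrays, and without those values the clone was not tested.

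In FL at week 1 SGK1 clones A and C had the highest means of their 8 groups. SGK1 clone A had 0.76, 0.63 and 0.30 in FL at week 1, against -0.02, -0.08, 0.17 and 0.16 in LL, and the values did not overlap. At week 5 they did not overlap either, with FL the lower line (means of -0.13 in FL and -0.01 in LL). How often the lines did not overlap over all clones was not counted, for this clone or for ENPP2 clone B. At week 1 the difference of SGK1 clone A was 0.51 ± 0.18 (3 of 3 arrays, adjusted p = 0.167, limma). SGK1 clone C had 0.28, 0.82, 0.55 and 0.36 in FL, against 0.08, 0.22, 0.40 and -0.23 in LL, a difference of 0.39 ± 0.17 (4 of 4 arrays, adjusted p = 0.242). Clone B differed by 0.01 ± 0.11. Averaged over the ages, the line differences of the 3 clones were 0.15 ± 0.09, -0.04 ± 0.06 and -0.01 ± 0.09, with adjusted p-values of 0.827, 0.902 and 0.978.

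**Figure D2:**
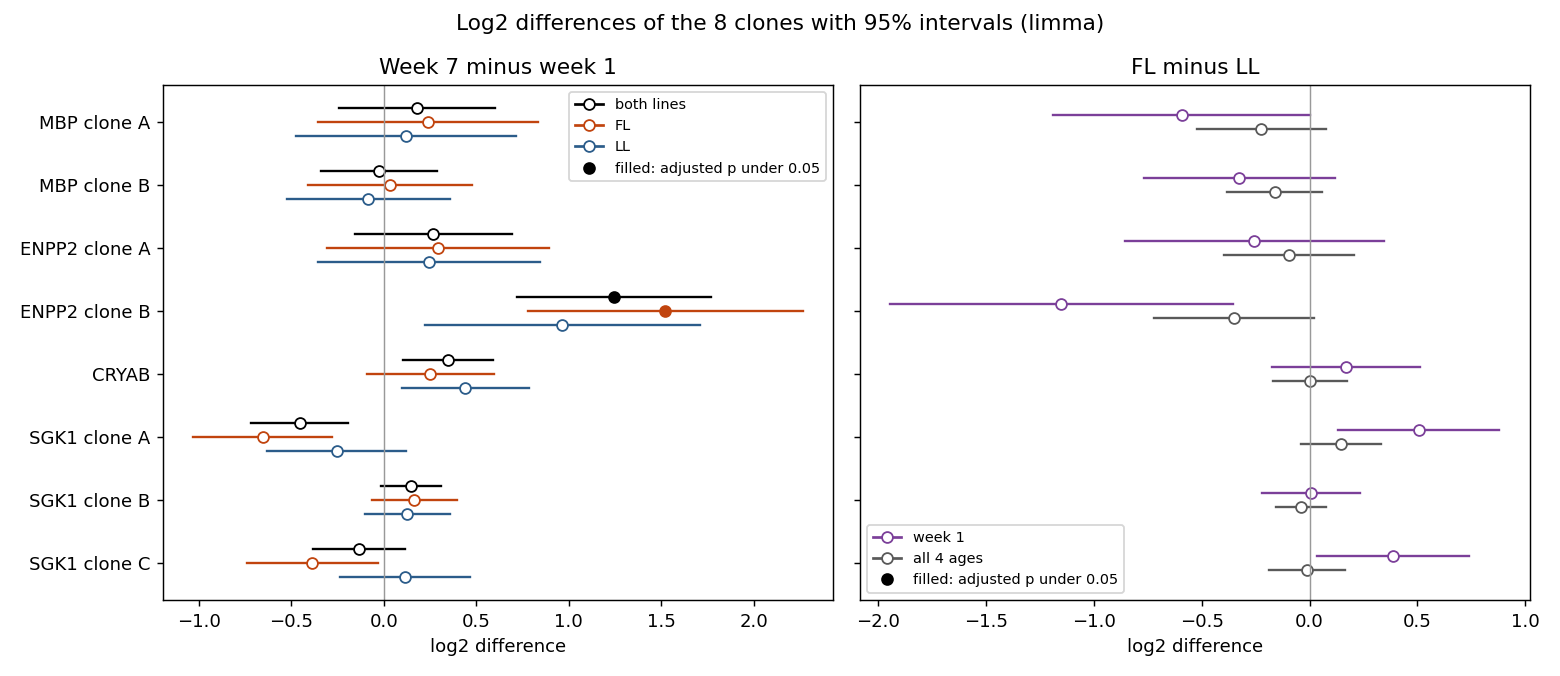
Log2 differences of the 8 clones with 95% intervals (horizontal axis), week 7 minus week 1 on the left, for both lines and within FL and LL, and FL minus LL on the right, at week 1 and over all 4 ages. Filled points passed at an adjusted p of 0.05; only ENPP2 clone B did, at 1.24 over both lines and 1.52 within FL.

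Over both lines, 1 of the 8 clones passed the comparison of week 7 with week 1, ENPP2 clone B, against 2.55% of all clones (202 of 7917; 1.55% higher and 0.998% lower). That clone passed the filter through LL at week 5 alone, a group in which it was high. It was above background on 0 of 3 FL arrays of week 1, and ENPP2 clone A, of the same gene, did not pass. The 1 of 8 is therefore no result about the 4 genes as a set. The median of the 8 differences was 0.16, against -0.02 for all clones. Within FL, 1 of 8 passed against 1.09% of all clones (0.707% higher), and within LL limma called 0 of 8 against 0.0758% (0.0253% higher). The counts at an unadjusted p under 0.05 were 3 over both lines, 3 within FL and 2 within LL. Of all 7917 clones, 1499, 1148 and 744 had such a p in these comparisons. With limma 0 of 8 passed between weeks 3 and 1 (0.139% of all clones, 0.0758% higher and 0.0632% lower; 3 members at an unadjusted p under 0.05), and 0 of 8 between weeks 7 and 3 (0.0126%; 0 members). Between FL and LL, limma called 0 of 8 over all ages (0.0505% of all clones; 0 members unadjusted) and 0 of 8 at week 1 (0.24%; 3 members unadjusted). For the difference of the age effects and for the line by age interaction it called 0 of 8, as it called 0% of all clones, with 1 member each at an unadjusted p under 0.05. The unadjusted counts over all 7917 clones were 962 for weeks 3 and 1 and 223 for weeks 7 and 3. They were 386 for the lines, 1398 for the lines at week 1, 334 for the difference of age effects and 540 for the interaction.

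The 2 MBP clones moved together from array to array. With each group's mean removed, they correlated with Pearson r = 0.902 and Spearman rho = 0.905 over 32 arrays (permutation p = 1e-05 for each, the smallest that 100000 resamples can give; 0.00028 after adjustment over 28 pairs of clones). Without the 2 arrays farthest out r was 0.892, and among the 8 arrays of 1 replicate number it lay between 0.769 and 0.935. With the group means left in, r between the MBP clones over the 32 arrays was 0.898. By that r, among 7916 other clones, MBP clone A ranked 1 with clone B and clone B ranked 5 with clone A. In the same measure 51 clones had an r over 0.8 with clone A and 36 with clone B. No other pair of clones of 1 gene passed: ENPP2 clones A and B correlated at r = 0.135 and rho = 0.05 (permutation p = 0.472 and 0.817, n = 28), and the 3 pairs of SGK1 clones at r between -0.11 and 0.12 (permutation p from 0.605 to 0.831).

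Some pairs of clones of different genes also moved together or opposite. How many pairs of all clones reach such an r with group means removed was not counted. MBP clone A and CRYAB correlated at r = 0.733 and rho = 0.750 (permutation p = 5e-05 and 6e-05, adjusted 0.0007 and 0.00084, n = 32), r = 0.673 without the 2 farthest arrays, and between 0.312 and 0.765 within a replicate number. MBP clone A and ENPP2 clone B correlated at r = 0.672 and rho = 0.655 (permutation p = 0.00164 and 0.00213, adjusted 0.0115 and 0.0149, n = 28), with r = 0.548 without the 2 farthest. MBP clone A and SGK1 clone C ran opposite, at r = -0.49 and rho = -0.53 (permutation p = 0.0137 and 0.00659, adjusted 0.0425 and 0.0255, n = 32), with r = -0.40 without the 2 farthest. MBP clone B also passed by r with CRYAB (0.739), ENPP2 clone B (0.573) and SGK1 clone C (-0.525). So did ENPP2 clone B with CRYAB (0.573) and ENPP2 clone A with SGK1 clone B (-0.496). Adjusted permutation p-values of these pairs ran from 0.00327 to 0.0314. For ENPP2 clone A and SGK1 clone B r was -0.36 without the 2 farthest arrays. ENPP2 clone A averages in the spot in block 4, which was above background on 0 arrays. Each array held 1 sample, so what the clones share through the array and through the sample cannot be told apart.

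The array's own signal went with several of the same clones. MBP clone B correlated with the median Cy3 signal over background at r = 0.608 and rho = 0.585 (permutation p = 0.00582 and 0.00667, adjusted over 8 clones 0.0233 and 0.0267, n = 32), and at r = 0.490 without the 2 farthest arrays. CRYAB gave r = 0.550 and MBP clone A 0.465, each with an adjusted permutation p of 0.0273. ENPP2 clone B missed the threshold by r, at 0.483 (adjusted permutation p = 0.0524, n = 28). By rho it passed, at 0.461 (adjusted permutation p = 0.0436). SGK1 clone C gave r = -0.54 (adjusted permutation p = 0.0233). The permutations, here and for the pairs of clones, shuffled arrays within a group and so took replicate numbers as exchangeable. Signal rose with replicate number, and MBP clone B deviated from its group mean by -0.19, 0.04, -0.08 and 0.22 on average at numbers 1 to 4. Correlations with signal were not computed within a replicate number, so the parts of signal and of replicate number cannot be told apart. With array signal removed, r was 0.881 between the MBP clones, 0.646 between MBP clone A and CRYAB, 0.580 between MBP clone A and ENPP2 clone B and -0.31 between MBP clone A and SGK1 clone C. With array signal as a covariate the week 7 minus week 1 difference of ENPP2 clone B passed as well (adjusted p = 0.00399, limma).

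**Figure D3:**
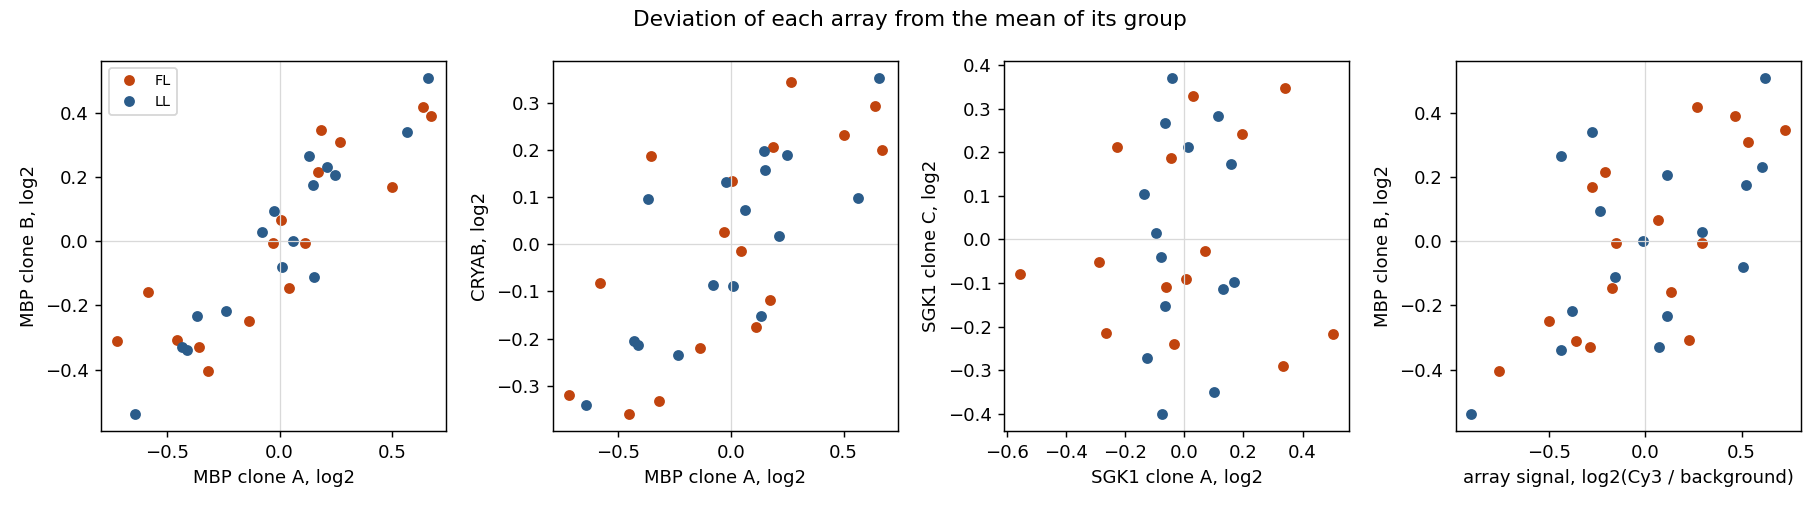
Deviation of each array from the mean of its group on the log2 scale, FL and LL coloured apart, for MBP clones A and B (r = 0.902), MBP clone A and CRYAB (r = 0.733), SGK1 clones A and C (r = 0.05), and MBP clone B against the array's signal (r = 0.608). The points of the 2 MBP clones lie along a line and those of the SGK1 clones do not.

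One array stood low across these clones. FL week 7 replicate 3 was the lowest of its group in MBP clone A (-0.77, the others -0.05 to 0.62), MBP clone B (-0.40, the others -0.24 to 0.30), ENPP2 clone A (-0.10, the others -0.03 to 0.55), ENPP2 clone B (-0.98, the others 0.30 to 0.70) and CRYAB (-0.35, the others -0.05 to 0.17). It was the highest of its group in SGK1 clones B (0.19) and C (0.47). Without it the FL week 7 mean was 0.19 for MBP clone A and 0.47 for ENPP2 clone B.

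Other genes of the oligodendrocyte lineage and of myelin were read from a list of 42 genes beside the members, of which 25 are on the array and 19 were tested. Each gene of this and the later lists was read by its brightest tested clone, while every member clone that passed the filter was tested. Between weeks 7 and 1 limma called 0 of the 19 higher and 0 lower. At an unadjusted p under 0.05 there were 6 of the 19, against 1499 of all 7917 clones. In sign, 8 differences were positive and 11 negative, with a median of -0.05. NKX6-2, a homeobox factor of oligodendrocyte maturation in mammals, came nearest at -0.39 (adjusted p = 0.0723, limma). Within FL it was lower at week 7 (-0.71 ± 0.17, adjusted p = 0.0348, limma), against -0.06 within LL (adjusted p = 0.953). The test of the difference of these effects called 0 of 7917 clones, so a difference between the lines was not shown for this gene. Within FL limma called 1 of the 19, NKX6-2, against 1.09% of all clones (0.379% lower). APOD, a lipid carrier made by oligodendrocytes and astrocytes, gave 0.33 (adjusted p = 0.139). CNTN1, an adhesion molecule of axons and oligodendrocyte precursors, gave 0.15 with its brightest clone and -0.38 and -0.17 with others, and FA2H, the enzyme that hydroxylates myelin lipids, gave -0.32 (adjusted p = 0.157). CNP, an enzyme of uncompacted myelin, gave 0.26, CLDN11 of myelin tight junctions 0.14 and the lineage factor OLIG2 0.07, while UGT8, which makes the main myelin galactolipid, gave -0.22, the myelin proteolipid PLLP -0.14 and the tetraspanin TSPAN2 -0.10, and none passed. The list had a mean log2 ratio between -0.06 and 0.08 over the FL arrays of week 7, against -0.02 to 0.18 over those of week 1, and between 0.00 and 0.15 over the LL arrays of week 7, against 0.03 to 0.07 over those of week 1.

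In the lists around the other members no gene passed between weeks 7 and 1 by its brightest tested clone. Other clones, among them the CEBPB clone at 0.88, are given as values only. By the same rule ENPP2 would be read by clone A, which did not pass. Of 7 tested genes of lysophosphatidic acid production and receptors, limma called 0 between weeks 7 and 1 (0 at an unadjusted p under 0.05), with a median of -0.02. Their values ran between 0.26 for ENPP3 (another clone -0.01) and 0.18 for ENPP4, relatives of autotaxin, and -0.12 for the receptor LPAR2 and -0.16 for the phospholipase PLA2G4A. Of 10 heat shock proteins and partners of CRYAB 0 passed (1 unadjusted), HSPA8, a constitutive chaperone, having the smallest p at -0.33 (adjusted p = 0.258; other clones 0.07 and 0.14). Of 6 genes of the SGK1 pathway and of the glucocorticoid response 0 passed (0 unadjusted), including the transcription factor CEBPB at 0.25 (another clone 0.88), the SGK1 substrate NDRG1 at 0.22 (other clones -0.04, 0.45 and 0.30) and the glucocorticoid receptor chaperone FKBP5 at -0.18.

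Markers of other cell types were read beside these results. Of the choroid plexus list, 3 of 9 genes were tested, and between weeks 7 and 1 TTR, its thyroid hormone carrier, gave 0.03, FOLR1 -0.09 and IGFBP2 0.38 (adjusted p = 0.163), with 0 passing. The mean log2 ratio of the 3 ran from -0.36 to 0.05 over the FL arrays of week 7, against -0.54 to -0.15 over the FL arrays of week 1, and from -0.68 to -0.17 over the LL arrays of week 7, against -0.62 to 0.00 over those of week 1. Its part in the ENPP2 clone B result was not tested. Of 4 tested genes of astrocytes and ependyma 0 passed by limma. GFAP, the astrocyte filament protein, gave 0.55 (adjusted p = 0.154, another clone 0.15), CLU 0.32 (another clone 0.46), S100B -0.19 and FOXJ1 -0.03. HBBA, a haemoglobin chain, was lower at week 7 (-1.35 ± 0.15, adjusted p = 6.99e-06, limma), as was TOP2A, an enzyme of dividing cells (-1.10 ± 0.19, adjusted p = 0.00191), and these were 1 of 3 tested blood genes and 1 of 4 tested genes of dividing cells. HBA1, SLC4A1, CDK1, PCNA and MCM2 gave values of -0.49 to -0.08 and did not pass.

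Neuron markers were read beside the line difference at week 1. The 5 tested genes (SNAP25, NEFL, STMN2, TUBB3 and ENO2) had a median difference, FL minus LL, of -0.60 at that age, against 0.05 for all clones. At an unadjusted p under 0.05 there were 4 of the 5, against 1398 of all 7917 clones. By limma 0 passed (adjusted p = 0.0659 for TUBB3 to 0.797 for SNAP25). Their mean log2 ratio ran from -0.58 to -0.25 over the FL arrays of week 1, against 0.10 to 0.29 over the LL arrays of week 1. The MBP clones, ENPP2 clone B and ENPP2 clone A (-0.26) were also lower in FL than in LL on average at that age. CRYAB (0.17) and SGK1 clones A (0.51), B (0.01) and C (0.39) were higher in FL on average. The 19 tested genes of the oligodendrocyte and myelin list had a median of 0.04, with 0 passing. The part of neuron content in these differences was not tested. With array signal in the model the ENPP2 clone B difference was -0.79 (adjusted p = 0.519, limma). Over 13 other settings, array signal among them, MBP clone A gave -0.59 to -0.34 and MBP clone B -0.32 to -0.09. Array signal differed between these groups, so its part cannot be told apart from that of the line. Of the hypothalamic peptides and factors listed, 2 of 15 are on the array and POMC was tested, with 0 passing.

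**Figure D4:**
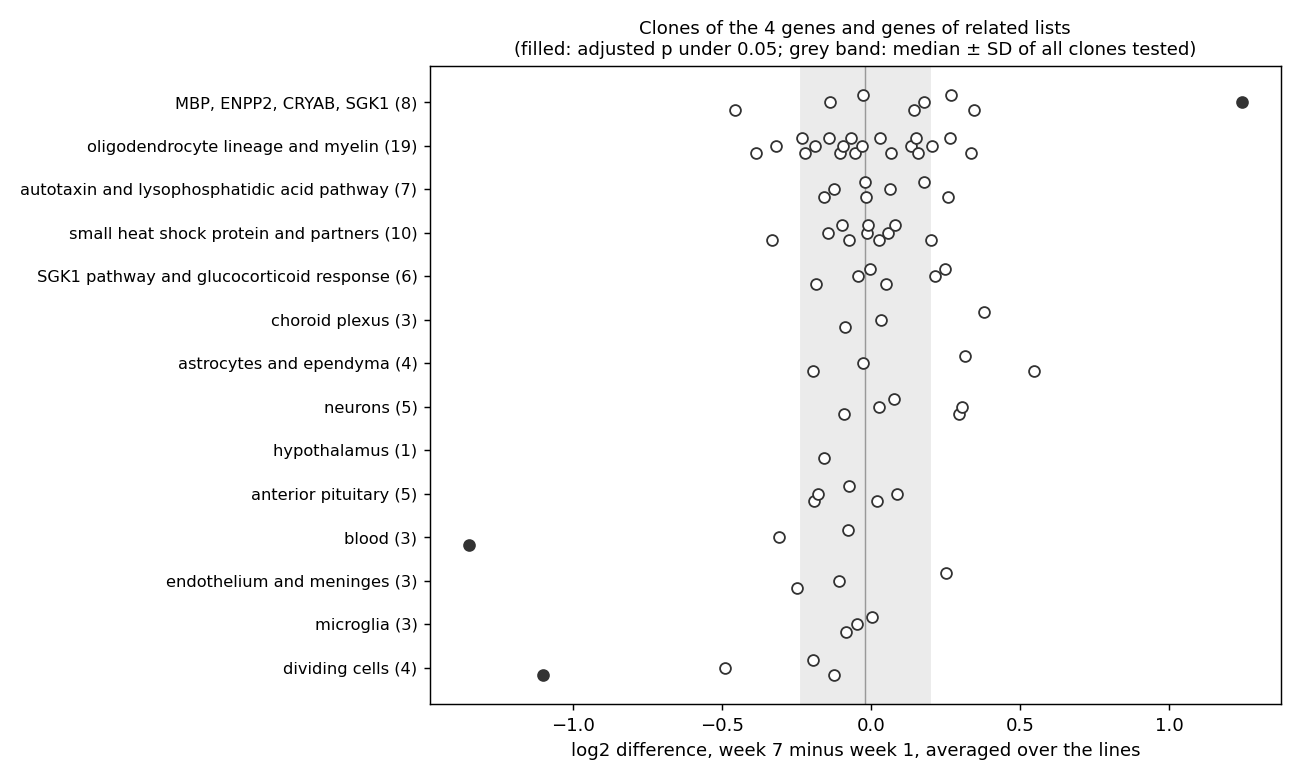
Log2 difference, week 7 minus week 1 averaged over the lines (horizontal axis), of the 8 member clones and of the tested genes of 13 lists (number tested in brackets). Each list gene stands by its brightest tested clone, and each member clone by itself. Filled points passed at an adjusted p of 0.05 and the grey band is the median of all clones, -0.02, plus and minus their SD, 0.22; ENPP2 clone B stands at 1.24, HBBA at -1.35 and TOP2A at -1.10.

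The genes most like each member were ranked by Pearson r over the 8 group means among 3736 genes, each by its brightest clone. For ENPP2 clone B they were FNBP4 (0.971), NECAB1 (0.971), USP24 (0.969), FGG (0.967) and EXOC4 (0.966), and of these NECAB1, a calcium-binding protein of neurons, rose with age (0.60, adjusted p = 0.000983, limma). For MBP clone A they were LMF2 (0.991), RAP1A (0.989), KLHL42 (0.980), SLA (0.967) and PTPRA (0.957), and RAP1A and SLA were also among the 5 of MBP clone B, with LOC418298, TMEM88B and ACTA1. For CRYAB they were GSK3A, SKP1, SDHD, MRS2 and PKP4 (0.925 to 0.958), of which SDHD, a subunit of mitochondrial complex II, rose by 0.49 (adjusted p = 0.00725). For SGK1 clone A they were RB1, TRMT2A, MSN, ANKFN1L and NRAP (0.976 to 0.988), of which TRMT2A and NRAP were lower at week 7 (-0.50 and -0.39, adjusted p = 0.0457 and 0.0146). Each r rests on 8 group means, and the names are a description. Those means include weeks 1 and 7, so the age differences of the genes picked are no separate result.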

How the data were processed

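Hypothalamic RNA of 32 samples was read on DEL-MAR 14K cDNA arrays. Per the file headers, the deposited files hold raw and local background intensity of both channels, spot area, quality letters and the authors' normalized log2 ratio. The key in the files calls letters A, X, Y and Z unsatisfactory, and those spots were left out. Spots were named through the spot names of the array files, since the authors' deposited series table matched them by place (64503 of 64503 values within 0.005) but not by name (1775 of 30053). The deposited intensity was divided by area, corrected with normexp (offset 50) and normalized within each array by loess (span 0.3; 4 iterations), using R 4.3.3 and its package limma 3.58.1. Above background means above the 95th percentile of the 960 empty spots on that array. Clones above background on at least 3 of 4 arrays in 1 group, with at least 2 values in every group, were tested (7917 of 17708). One model with 8 group means gave every comparison, two-sided, with Benjamini-Hochberg adjustment over 7917 clones and a threshold of 0.05. Scanner, image software and the authors' normalization: not given in the sources used here.

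Each tested clone of the 4 symbols was described. From the other lists the genes that passed, or otherwise up to 4 with the smallest p between weeks 7 and 1, were named, and CNP, CLDN11, OLIG2, UGT8, PLLP and TSPAN2 were added after their values were seen. The members and the lists were chosen with earlier results of these data known. Alternatives covered the background subtraction, the normalization, the filters, weights, array signal, the replicate number and each array left out. The design text calls the replicates biological, and the number of arrays limits the precision.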

Additional observations from a re-analysis of the deposited data

Results flagged for a closer look

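In 5 of the 63 groups of 4 arrays checked, 1 array lay far from the other 3, and chance marks about 5% of such groups. MBP clone A in LL at week 1 had -0.13 in replicate 3, while the others lay between 0.43 and 0.45. ENPP2 clone A had -0.66 in FL week 5 replicate 1 (the others 0.18 to 0.31), 0.94 in LL week 1 replicate 1 (the others -0.28 to -0.11) and 1.34 in LL week 7 replicate 2 (the others -0.13 to 0.06). On the last of these arrays the dim spot in block 4 gave 2.74 and the brighter spot in block 27 gave -0.06. ENPP2 clone B had -0.37 in LL week 5 replicate 1, where the others lay between 0.81 and 0.94, and that array did not measure it above background.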

How the results depend on the processing

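ENPP2 clone B was higher at week 7 than at week 1 in all 11 other settings (1.00 to 1.35) and passed in 9 of them. It also passed in 32 of 32 fits without 1 array (1.14 to 1.42). Of these 32 fits, only those without an array of week 1 or 7 that held a value of the clone could move the difference. All these settings and fits drew on the FL arrays of week 1, where 0 of 3 with a value were above background. The reported filter admitted the clone by a group in which it was high. The counts of settings and fits passed therefore do not test the call against low signal or that choice. ENPP2 clone B missed the threshold with log ratios scaled between arrays (1.03) and with only the arrays compared (1.24). With the authors' log2 ratios or the stricter filter it was not tested. Within FL its call was lost with the replicate number as a block (1.63, adjusted p = 0.0637), with scaling (1.21, adjusted p = 0.186) and with only the arrays compared (1.52, adjusted p = 0.416). Of 2824 recomputed member values 2704 kept direction and side of the threshold, and 88 that had not passed changed sign. The labels do not say that a replicate number pairs samples. In deviations from the group mean, same-numbered arrays of different groups correlated at a mean r of 0.09 (112 pairs, lowest -0.45), against -0.03 for other pairs (336). Deviations cancel out within a group, so these means are tied and are no separate contrast. Of 32 arrays, 16 correlated best with their own number, and the number that would do so by chance was not computed.

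The counts of clones called moved by over 1.5 times as follows, with the reported counts 202 (weeks 7 and 1), 11 (weeks 3 and 1), 1 (weeks 7 and 3), 86 (within FL), 6 (within LL), 4 (lines), 19 (lines at week 1) and 0 (difference of age effects, and interaction). In that order, no background subtraction gave 489, 24, 186 within FL, 13 within LL and 46 for the lines at week 1. The authors' log2 ratios gave 310, 0 for weeks 7 and 3, 13 within LL, 0 for the lines and 1 at week 1. Scaling between arrays gave 107, 3, 36 within FL, 2 for the lines and 3 at week 1. Array weights gave 938, 164, 2, 341, 102, 40 for the lines at week 1 and 4 for the interaction. No filter gave 17 (weeks 3 and 1) and 2 (lines), and the stricter filter 3, 0, 32, 0 and 8 (weeks 3 and 1, weeks 7 and 3, within FL, lines, lines at week 1). The array signal covariate gave 24 (weeks 3 and 1) and 0 (lines at week 1), and the replicate block 22, 2 and 35 (weeks 3 and 1, lines, lines at week 1). Only the arrays compared gave 25, 2, 0, 1, 2 and 9 (weeks 7 and 1, 3 and 1, 7 and 3, within FL, within LL, lines at week 1). Without the 4 arrays with wide scatter, chosen after seeing the data, the counts were 482, 66, 0, 614, 5 for the difference of effects, 2 for the lines, 594 at week 1 and 10 for the interaction. Leaving out 1 array gave ranges of 65 to 535, 5 to 76, 1 to 1, 20 to 414, 3 to 9, 2 to 5, 2 to 176, 0 to 1 and 0 to 31. For weeks 7 and 1 the count left 1.5 times the reported one when replicate 1 (478), 2 (83) or 3 (115) of FL at week 1 was left out, when replicate 1 (65), 2 (79), 3 (535) or 4 (90) of FL at week 7 was, when replicate 2 (312), 3 (80) or 4 (80) of LL at week 1 was, and when replicate 2 (103) of LL at week 7 was. Within FL the same held for replicates 1 (281), 2 (26) and 3 (55) of week 1 and replicates 1 (20), 2 (24), 3 (414) and 4 (20) of week 7. The cause of these shifts was not tested. Low signal leaves the size of the FL change of ENPP2 clone B from week 1 uncertain.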
